A study of Mus musculus with 19 samples.

Results

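The nuclear-coded genes of the respiratory chain and the ATP synthase were examined in mouse liver. Members were taken by symbol, as rows of the count table beginning Nduf, Sdh, Uqcr, Cox4 to Cox8 or Atp5 that follow the subunit naming and total at least 50 counts over 19 libraries. There were 78 such genes of 24421 rows in the table, and all 78 passed the filter on low counts, which left 13293 genes for testing. Complex I contributed 34 of them, complex II 4, complex III 8, complex IV 15 and complex V (the ATP synthase) 15. The remaining 2, Atp5s and Atp5sl, carry the name of the ATP synthase without being subunits of it. A further 6 rows matched by symbol but fell below the minimum. Of these, Cox7b2, Cox8b, Cox8c and Ndufs5 had 0 counts, Cox4i2 had 43 and Cox6a2 had 46, whereas the lowest members were Cox6b2 with 134 counts, Cox7a1 with 659 and Ndufa4l2 with 1361.

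All mice had received an antisense oligonucleotide (ASO), a short synthetic strand that lowers the RNA it pairs with, in 2 injections per week over 3 weeks, and all were on a purified normal diet. The ASO was either a control or was directed at Plin5, the gene for perilipin 5, a protein that coats lipid droplets and lies close to mitochondria. Livers were taken after an overnight fast (4 control ASO and 5 PLIN5 ASO libraries) or after the fast and 4 h of re-feeding (5 and 5 libraries). Strain, sex, age and the ASO sequences are not given in the labels, nor is it stated whether each library is a separate animal. If some share an animal, p-values measure only the spread between these samples. The labels speak only of a PLIN5 ASO, without the number of sequences used. Effects of the oligonucleotide other than lower Plin5 RNA therefore cannot be told apart from that lowering.

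As background, complexes I and II pass electrons from NADH and succinate to ubiquinone, complex III hands them to cytochrome c, and complex IV transfers them to oxygen. Complexes I, III and IV pump protons across the inner mitochondrial membrane, and the ATP synthase uses their return to make ATP. In liver the chain also takes up the electrons released by fatty acid oxidation during a fast. Most subunits are coded in the nucleus and a few in mitochondrial DNA, and the latter were not analysed here.

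Plin5, the targeted gene, served as the check of the labels. Its level ranged from 35.05 to 38.45 CPM (the usual normalised read count, scaled by library size with TMM) in fasted control ASO and from 6.143 to 13.05 CPM in fasted PLIN5 ASO. It ranged from 27.29 to 51.83 CPM in re-fed control ASO and from 3.908 to 11.78 CPM in re-fed PLIN5 ASO, so that the ASO groups did not overlap in either feeding state. Total counts were 24942147 to 66862784 per library. Hepatocyte markers summed to between 92300 and 158400 CPM, and skeletal and heart muscle markers, which would mark tissues rich in these genes, to at most 0.3794 CPM, with Myh6 at 0. Within the hepatocyte list Alb was at 53340 to 102700 CPM but Ass1 at only 0.4233 to 1.512 CPM. The cause of the low Ass1 counts was not tested. Clock genes set 4 libraries apart from the rest (fasted PLIN5 ASO 3 and 5, re-fed control ASO 3 and 5): Arntl was at 14.58 to 44.97 CPM there and at 4.868 CPM or less elsewhere. Fasted control ASO 3 and 4 were much closer to each other than any other pair within a group (chi-square divided by its degrees of freedom 3.273, next lowest 19.53), which is above sampling noise, and both were kept. Results are given below with and without the libraries that stand apart.

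The 78 genes took up between 1.178% and 1.519% of all counts in a library. Within that sum the ATP synthase held a median of 33.81%, complex I 26.15%, complex IV 18.65%, complex III 12.42% and complex II 8.632%. Levels between genes were compared on the authors' FPKM, a fragment count scaled by library size and by transcript length. The median subunit of complex III stood at 351.9 FPKM, of complex V at 344 FPKM, of complex IV at 245.4 FPKM, of complex II at 171.4 FPKM and of complex I at 130.6 FPKM. The highest mean over all libraries belonged to Cox6a1, the form of cytochrome oxidase subunit 6A found in liver and most tissues, at 923.6 FPKM. It was followed by Uqcrq (750.4 FPKM), a small subunit of complex III, and by Ndufa4 (741.9 FPKM), which is named for complex I but is a subunit of complex IV. The isoforms known from other tissues or conditions were at the bottom: Cox6b2, the testis form, at 0.4514 FPKM, Ndufa4l2, known from hypoxia, at 2.598 FPKM, and Cox7a1, the heart and muscle form, at 4.284 FPKM. Atp5s was also low, at 3.718 FPKM. The 3 genes for the c subunit of the ATP synthase ring contributed unequally, with Atp5g3 at 63.42% to 68.99% of their summed FPKM in every library. These 3 genes code for the same mature protein and are similar in sequence, so reads may have been divided between them. FPKM and length-scaled CPM were not in 1 ratio over genes. FPKM was 2.63 times the CPM per kilobase of the transcript used here for Uqcrq and 3.695 times for Atp5g1, beside 1.187 for Atp5g3, 1.113 for Atp5g2 and a median of 1.317. The rank of Uqcrq and the level of the c subunit shares therefore depend on the measure used. What part transcript lengths or the assignment of reads had in these ratios was not tested.

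**Figure D1:**
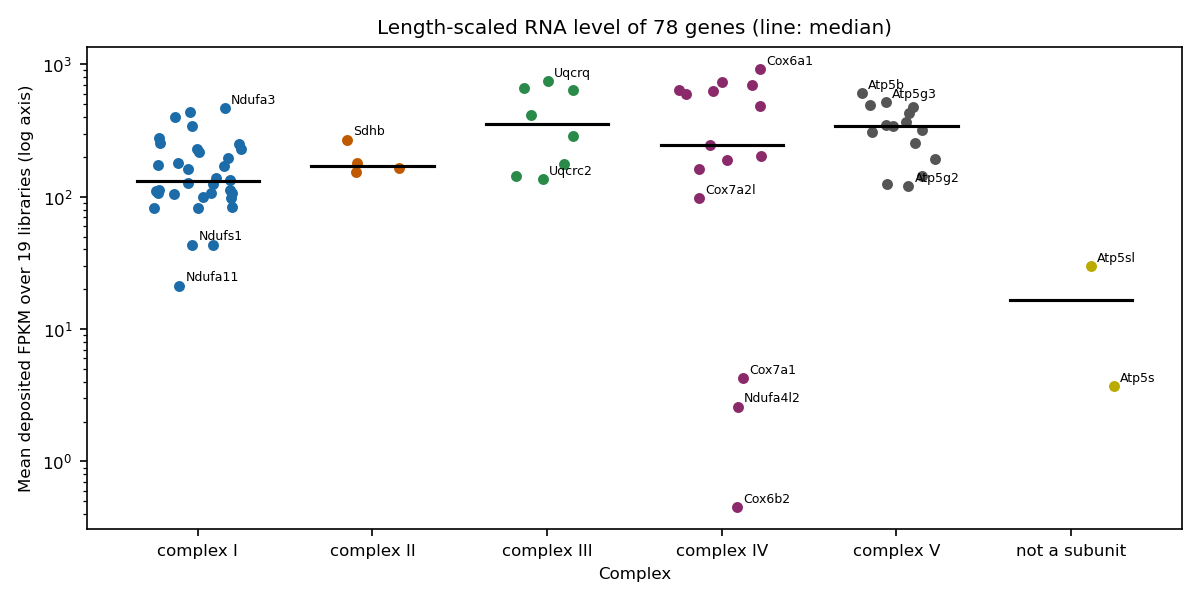
Mean deposited FPKM over 19 libraries (log axis) of each of the 78 genes, by complex, with a line at the median of the complex. Cox6a1 stands highest at 923.6 FPKM, and Cox6b2, Ndufa4l2 and Cox7a1 lie far below the other complex IV genes.

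Promoter sequences were taken from RefSeq (build GRCm38.p6) as the 250 bases before the annotated start, which gave 70 windows for 64 of the 78 genes. A motif of the type bound by NRF1, a regulator of respiratory genes, was searched on both strands as GCGC, then AN, then GCGC (N is any base). It occurred in 18.6% of the windows of these genes and in 3.74% of all 32851 windows in the table. Windows with it belonged to 12 genes: Ndufa5, Ndufa8, Ndufa11, Ndufb4, Ndufs6, Sdha, Sdhd, Cox6a1, Atp5c1, Atp5g2, Atp5h and Atp5k. The ETS-type motif CCGGAAG was in 17.1% of their windows against 6.91% of all, and TATAAA in 8.57% against 12.4%. The first and second of these motifs occurred together for Atp5h, Cox6a1 and Sdhd, and none of the motifs searched contains another. A match is a description of the letters only. The promoters of 4 genes that the results below turn on are printed 5′ to 3′, with the NRF1-type match in capitals and without bases that GENCODE places in an exon. They are Ndufb4 (chr16:37654454-37654618, minus strand) and Ndufs8 (chr19:3912775-3913024, minus strand), which rose on re-feeding under PLIN5 ASO, and Ndufa3 (chr7:3617123-3617372, plus strand) and Cox7a2l (chr17:83514334-83514583, minus strand), which fell on re-feeding under control ASO.
Ndufb4: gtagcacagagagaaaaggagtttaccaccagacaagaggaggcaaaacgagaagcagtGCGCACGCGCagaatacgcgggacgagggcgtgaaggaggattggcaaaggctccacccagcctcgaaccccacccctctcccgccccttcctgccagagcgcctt
Ndufs8: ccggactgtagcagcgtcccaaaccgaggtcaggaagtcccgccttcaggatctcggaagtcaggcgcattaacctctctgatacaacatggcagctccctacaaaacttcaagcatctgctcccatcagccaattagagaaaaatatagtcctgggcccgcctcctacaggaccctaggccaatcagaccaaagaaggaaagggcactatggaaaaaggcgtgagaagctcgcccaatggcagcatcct
Ndufa3: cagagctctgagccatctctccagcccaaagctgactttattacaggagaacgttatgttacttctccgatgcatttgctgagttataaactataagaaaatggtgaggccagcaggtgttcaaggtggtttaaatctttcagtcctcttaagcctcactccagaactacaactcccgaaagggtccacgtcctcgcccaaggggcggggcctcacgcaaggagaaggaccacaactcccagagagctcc
Cox7a2l: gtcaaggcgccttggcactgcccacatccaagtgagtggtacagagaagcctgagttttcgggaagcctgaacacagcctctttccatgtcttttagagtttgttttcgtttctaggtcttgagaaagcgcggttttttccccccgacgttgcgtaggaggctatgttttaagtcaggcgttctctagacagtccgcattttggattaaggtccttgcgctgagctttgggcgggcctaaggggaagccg
The whole Ndufb4 window held 3 NRF1-type matches, of which 1 is in the stretch shown, and the windows of the other 3 genes held none. Ndufa8 had 1 match, 30 bases before its RefSeq start, in bases that GENCODE places in an exon. The Ndufa3 window holds TATAAA.

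Re-feeding under control ASO gave 5 of the 78 genes lower RNA and none higher, by edgeR's quasi-likelihood test with Benjamini-Hochberg adjustment over all genes tested (threshold 0.05). Of all genes tested, 13.2% were called in this comparison, 6.82% as lower and 6.42% as higher. The 5 lower calls are near the share called lower among all genes tested. Those that fell were Ndufa3 and Ndufa7, accessory subunits of complex I, Cox4i1, a nuclear-coded subunit of complex IV, Cox7a2l, which helps join complexes III and IV into supercomplexes, and Atp5s, a factor named after the ATP synthase. The median log2 fold change over the 78 genes was -0.17, with 4 of 78 above 0, beside a median of 0.025 over all genes tested. Some lists of markers of other liver cells lay the other way, with none of their genes called. In these, 12 of 12 Kupffer cell and macrophage markers (median 0.39), 8 of 8 stellate cell and fibroblast markers (0.31) and 7 of 8 endothelial markers (0.24) were above 0. Neutrophil and monocyte markers were at 4 of 5 (0.15), lymphocyte markers at 3 of 6 (-0.185, 1 called higher) and cholangiocyte markers at 2 of 5 (-0.17). Hepatocyte markers were at 6 of 10 (0.10), with 1 called higher and 1 lower. The part of these markers in the result was not tested. In liver tissue, fewer cells of a type and less RNA per cell cannot be told apart.

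Cox7a2l (chromosome 17, 83501918 to 83517330, GRCm38) stood at 105.4, 108.9, 107.7 and 109.1 CPM in fasted control ASO, while re-fed control ASO libraries were at 86.23, 81.05, 87.79, 93.53 and 78.15 CPM. The groups did not overlap, and the spread was small in the fasted one. Its log2 fold change was -0.34 ± 0.08 (SE, adjusted p = 0.00594).

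Ndufa7 (chromosome 17, 33824572 to 33838317) stood at 102.9, 107.4, 98.88 and 103.2 CPM fasted and at 77.88, 81.08, 78.57, 83.65 and 75.65 CPM re-fed. Every re-fed library was below every fasted one, for a log2 difference of -0.38 ± 0.10 (SE, adjusted p = 0.0151). Atp5s (chromosome 12, 69724950 to 69744660) went from 7.256, 6.964, 5.193 and 6.231 CPM to 4.554, 4.169, 3.438, 5.003 and 3.428 CPM. It had the largest fall of the 5, at -0.64 ± 0.14 (SE, adjusted p = 0.00469), at a low level. Its 2 lowest re-fed libraries are the clock-shifted ones.

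Ndufa3 (chromosome 7, 3617373 to 3620327) stood at 97.99, 107.4, 102.8 and 95.37 CPM fasted and at 78.41, 81.71, 86.99, 86.44 and 85.41 CPM re-fed, or -0.27 ± 0.08 on the log2 scale (SE, adjusted p = 0.0355). Cox4i1 went from 397.5, 434.6, 426.8 and 402.5 CPM to 303.4, 345.8, 342.6, 356.3 and 340.7 CPM, or -0.30 ± 0.09 on the log2 scale (SE, adjusted p = 0.0361). Neither gene's groups overlapped. Both calls passed under 19 of 34 alternatives. Of the 19 fits that left out 1 library, Ndufa3 passed in 13 and Cox4i1 in 12.

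A total of 26 of the 78 genes had every re-fed control library below every fasted control library, and none the reverse, while 9.12% of all genes tested lay wholly lower and 7.15% wholly higher. Among these were Sdhc, a membrane anchor of complex II, at -0.20 ± 0.07 (SE, adjusted p = 0.0732) and Atp5g3 at -0.25 ± 0.09 (SE, adjusted p = 0.0649), and neither passed the test. Complex by complex, the median log2 fold change was -0.15 for complex I, -0.13 for complex II, -0.18 for complex III, -0.20 for complex IV and -0.13 for complex V. Several large subunits lay close to 0. Ndufs1, the iron-sulfur subunit at the NADH end of complex I, was at 0.004 ± 0.10 (SE), Sdha, the flavoprotein of complex II, at -0.05 ± 0.08 (SE), Uqcrc2, a core protein of complex III, at -0.01 ± 0.08 (SE), and the F1 subunits Atp5a1 and Atp5b at -0.03 ± 0.08 and -0.06 ± 0.07 (SE).

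The isoforms known from other tissues were too low for a firm value. Cox6b2 had 0 counts in re-fed control ASO 1, 2 and 5 and was at 0.1669 and 0.09499 CPM in the other 2, against 0.1416 to 0.4285 CPM in fasted control ASO (adjusted p = 0.0862). Ndufa4l2 stood at 2.88 ± 0.53 CPM fasted (SD, n = 4) and at 2.17 ± 0.46 CPM re-fed (SD, n = 5), with overlapping groups (adjusted p = 0.326).

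The number of genes that passed depended on the libraries used. Without re-fed PLIN5 ASO 2, which is in neither of these groups but enters the shared estimate of spread, 20 of 77 genes were lower, and they included all 5 above. Leaving out fasted control ASO 1, 3 or 4, or re-fed control ASO 1 or 3, left 3 of the 5. Without the 4 clock-shifted libraries 2 genes passed, Cox7a2l at -0.31 (adjusted p = 0.00845) and Ndufa7 at -0.35 (adjusted p = 0.049), with a median over the genes of -0.13.

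**Figure D2:**
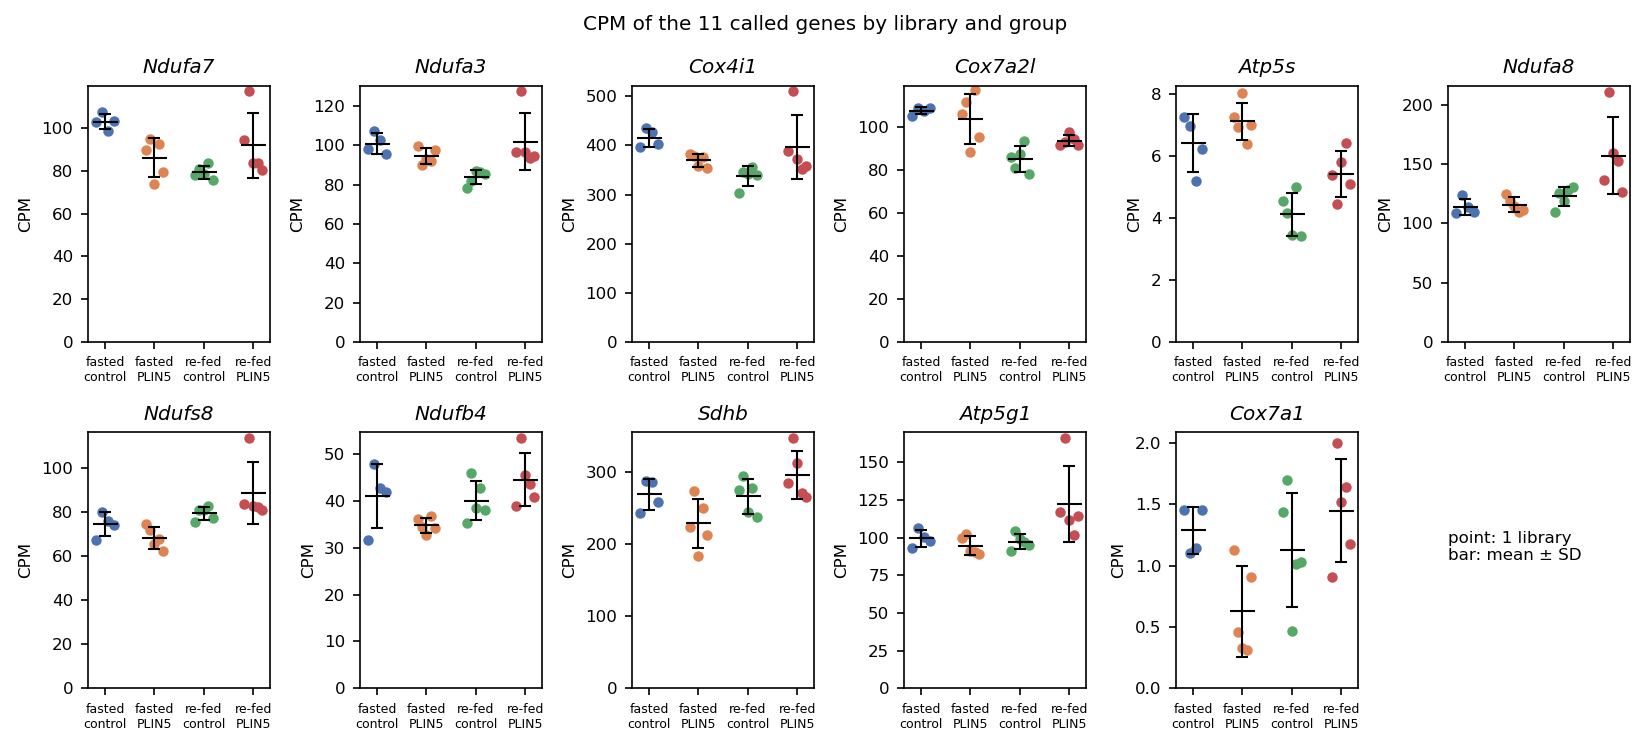
CPM of the 11 genes that passed the test in a re-feeding comparison, with 1 point per library and bars for the mean ± SD of each group (axes start at 0). Cox7a2l, Ndufa7, Ndufa3, Cox4i1 and Atp5s are lower in re-fed than in fasted control ASO, and re-fed PLIN5 ASO 2 is the highest point in its group for all of the other 6.

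Re-feeding under PLIN5 ASO gave calls in the other direction but for other genes, with 6 of the 78 genes higher and none lower. Of all genes tested, 8.64% were called, 4.5% as higher and 4.14% as lower. The 6 were Ndufa8 and Ndufb4, accessory subunits of complex I, Ndufs8, an iron-sulfur core subunit of complex I, Sdhb, the iron-sulfur subunit of complex II, Atp5g1, a gene for the c subunit, and Cox7a1. The median log2 fold change was 0.12, with 65 of 78 genes above 0, beside 0.001 over all genes tested. Here 1 of 12 Kupffer cell and macrophage markers (median -0.38), 0 of 5 neutrophil and monocyte markers (-0.45) and 2 of 8 stellate cell and fibroblast markers (-0.28) were above 0. Lymphocyte markers were at 1 of 6 (-0.54), cholangiocyte markers at 2 of 5 (-0.15) and endothelial markers at 4 of 8 (0). None of these markers was called. Hepatocyte markers were at 7 of 10 (0.17), with 3 called higher and 1 lower. The part of these lists in the result was not tested.

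Ndufa8 (chromosome 2, 36036326 to 36049406) stood at 124.9, 118.6, 114.8, 109.8 and 111.5 CPM in fasted PLIN5 ASO and at 136.6, 210.8, 159.2, 153 and 126.9 CPM in re-fed PLIN5 ASO. The groups did not overlap, and replicate 2 was far above the other re-fed libraries. Its log2 fold change was 0.44 ± 0.10 (SE, adjusted p = 0.0106).

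Ndufs8 (chromosome 19, 3908863 to 3912774) stood at 74.74, 71.85, 65.35, 68.03 and 62.25 CPM fasted and at 83.52, 113.6, 82.57, 82.46 and 80.94 CPM re-fed. The other 4 re-fed libraries lay close together, all above the fasted ones. Its log2 fold change was 0.37 ± 0.09 (SE, adjusted p = 0.0106). In the control ASO groups, the level was 74.5 ± 5.41 CPM fasted (SD, n = 4) and 79.5 ± 2.88 CPM re-fed (SD, n = 5).

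Ndufb4 (chromosome 16, 37647170 to 37654453) went from 36.07, 34.35, 32.6, 36.69 and 34.13 CPM to 38.97, 53.46, 45.55, 43.56 and 40.84 CPM, also without overlap, for a log2 difference of 0.36 ± 0.10 (SE, adjusted p = 0.0373). The call passed under 23 of 34 alternatives and in 11 of the 19 fits that left out 1 library. It was lost when any fasted PLIN5 ASO library was left out. In fasted control ASO, Ndufb4 was more spread, from 31.54 to 47.87 CPM. In all, 4 of the 78 genes had every re-fed library above every fasted one under PLIN5 ASO, against 3.94% of all genes tested, and none lay wholly lower, against 3.63%.

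Sdhb (chromosome 4, 140961203 to 140979193) stood at 223.2, 273.1, 183.7, 249.3 and 212 CPM fasted and at 283.6, 346, 311.8, 270.6 and 265.5 CPM re-fed. The groups overlapped, and the lowest and second lowest fasted values came from the clock-shifted libraries 3 and 5. Its log2 fold change was 0.37 ± 0.10 (SE, adjusted p = 0.028). Atp5g1 (chromosome 11, 96068852 to 96075670) went from 94.7 ± 6.18 to 122 ± 25.2 CPM (SD, n = 5 each), with the highest re-fed library at 165.9 CPM, for a log2 difference of 0.37 ± 0.10 (SE, adjusted p = 0.0265).

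Cox7a1 (chromosome 7, 30184144 to 30186078) was near 1 CPM throughout. It stood at 1.131, 0.4558, 0.3247, 0.316 and 0.9072 CPM in fasted PLIN5 ASO and at 0.9107, 1.999, 1.52, 1.639 and 1.179 CPM in re-fed PLIN5 ASO. These groups overlapped. The log2 fold change was 1.20 ± 0.36 (SE, adjusted p = 0.0458), the largest of the 6 and on the fewest counts. This call passed under 11 of 34 alternatives and in 5 of the 19 fits that left out 1 library.

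Without re-fed PLIN5 ASO 2 the median was 0.03 (50 of 77 genes above 0) and 2 genes passed, Ndufa8 at 0.31 (adjusted p = 0.0208) and Ndufs8 at 0.26 (adjusted p = 0.0205). Leaving out fasted PLIN5 ASO 3, 4 or 5, or re-fed PLIN5 ASO 3, left 2 or 3 genes. Ndufa8 and Ndufs8 passed with each of the 19 libraries left out in turn. None of the 6 passed without the 4 clock-shifted libraries, where Ndufa8 was at 0.42 (adjusted p = 0.0563) and Ndufs8 at 0.31 (adjusted p = 0.0792). In that fit the gene that passed was Cox7a2l, which was lower (-0.25, adjusted p = 0.0178), as it was in the control ASO groups. With all libraries it was at -0.15 ± 0.07 (SE) under PLIN5 ASO (adjusted p = 0.216).

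Other members of the same complexes did not pass. Of the 7 core catalytic genes of complex I, Ndufs8 was the one called, and the rest lay between -0.02 and 0.15. In complex II, Sdha was at 0.01 ± 0.08 (SE) and the membrane anchors Sdhc and Sdhd were at -0.001 and -0.07, beside 0.37 for Sdhb. Both core proteins of complex III lay above 0, Uqcrc1 at 0.17 ± 0.07 (SE, adjusted p = 0.15) and Uqcrc2 at 0.17 ± 0.07 (SE, adjusted p = 0.153). The other genes for the c subunit were at 0.06 (Atp5g2) and 0.005 (Atp5g3), beside 0.37 for Atp5g1. Atp5s was at -0.39 ± 0.13 (SE, adjusted p = 0.0643), the same sign as its fall in the control ASO groups.

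The c subunit RNA also differed in make-up. Atp5g3 held 68.7 ± 0.29% of the FPKM of the 3 genes in fasted control ASO (SD, n = 4), 67.0 ± 0.82% in fasted PLIN5 ASO, 66.2 ± 0.60% in re-fed control ASO and 64.4 ± 0.93% in re-fed PLIN5 ASO (SD, n = 5 each). The lowest fasted library stood above the highest re-fed library within each ASO. Atp5g1 held 16.5 ± 0.39%, 17.1 ± 0.79%, 18.8 ± 0.55% and 19.95 ± 1.52% in the same order, and here too the re-fed libraries were all above the fasted ones within each ASO. These shares were not tested.

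**Figure D3:**
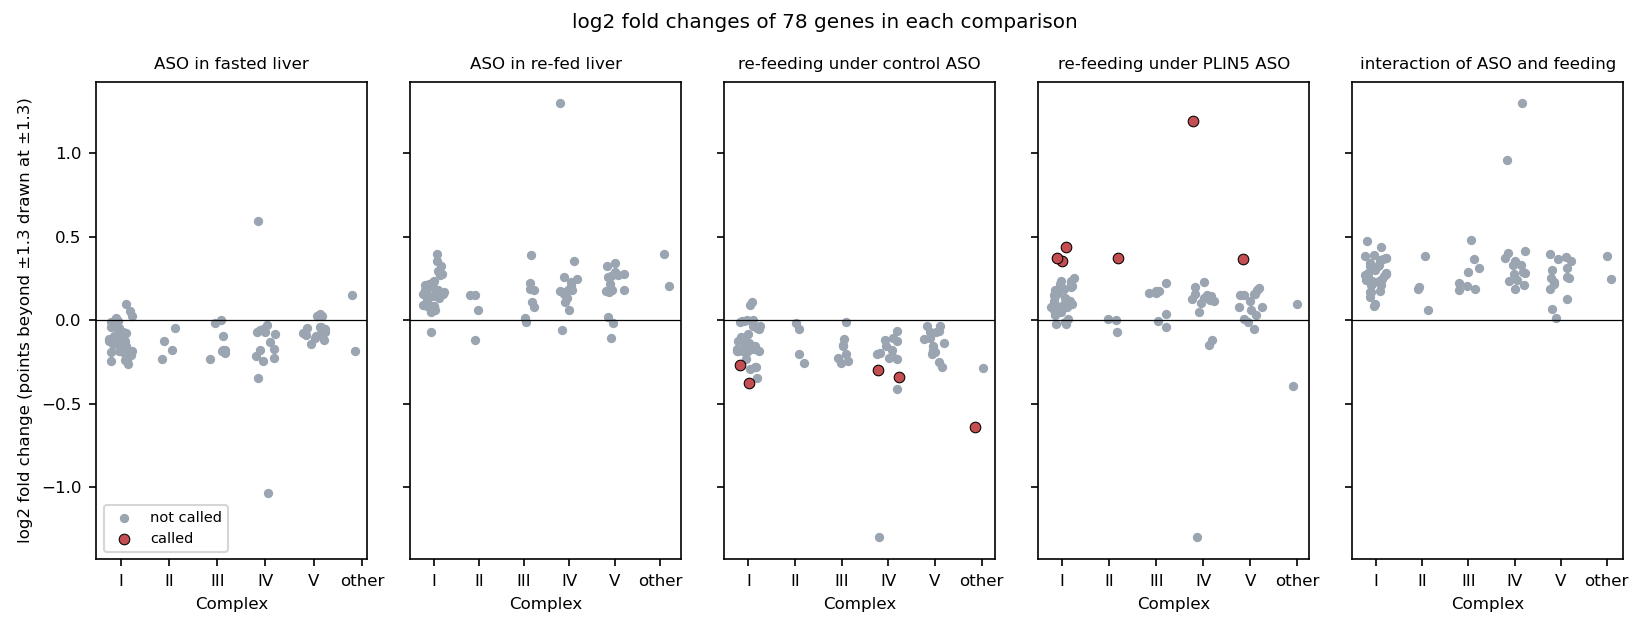
log2 fold change of each of the 78 genes by complex in 5 comparisons (4 points beyond ±1.3 are drawn at the edge), with the genes that passed the test in red. Most points lie below 0 for re-feeding under control ASO and above 0 for re-feeding under PLIN5 ASO, and all lie above 0 in the interaction.

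For PLIN5 ASO against control ASO in fasted liver, edgeR called none of the 78 genes. Of all genes tested, 1.17% were called there, 0.602% as higher and 0.572% as lower. At an unadjusted p under 0.05 there were 16 lower and 0 higher, against 1001 and 1002 of all 13293 genes tested, and DESeq2 and limma on FPKM both called 0. The median log2 fold change was -0.11 with 10 of 78 genes above 0, beside 0.01 over all genes. The smallest p belonged to Uqcrc1, a core protein of complex III, at 289.7, 323.7, 312.2 and 310.6 CPM with control ASO and at 266, 285.8, 227, 285.3 and 249.8 CPM with PLIN5 ASO. These groups did not overlap, and the log2 fold change of -0.23 ± 0.07 (SE) had an adjusted p of 0.126. Ndufa7, the complex I gene that fell on re-feeding, was at 89.92, 95.04, 73.92, 92.57 and 79.35 CPM with PLIN5 ASO, below all 4 control values, with an adjusted p of 0.209. Wholly lower groups were seen for 9 of the 78 genes and 4.26% of all genes, and wholly higher groups for 0 and 2.87%. The clock-shifted libraries were the lowest of their group for Uqcrc1 and Ndufa7, and without those 4 libraries the median was -0.04 with 21 of 77 genes above 0. Markers of other liver cells also differed in this comparison. The 12 Kupffer cell and macrophage markers summed to 150.6 to 180.7 CPM with control ASO and to 172 to 447.7 CPM with PLIN5 ASO, with 2 of 12 called higher. Clock-shifted libraries 3 and 5 were the highest of fasted PLIN5 ASO for every marker of that list, with Clec4f at 72.17 and 51.22 CPM (28.03 to 32.33 CPM in the rest). Of 8 stellate cell and fibroblast markers, 3 were called higher. Endothelial markers lay the same way as the members, with 2 of 8 above 0 (median -0.16). Neutrophil and monocyte markers were at 4 of 5 (0.53), lymphocyte markers at 4 of 6 (0.24) and cholangiocyte markers at 4 of 5 (0.27). Hepatocyte markers were at 6 of 10 (0.11), with none called. The part of these markers in the result was not tested.

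By complex, the fasted medians were -0.12 for complex I, -0.15 for complex II, -0.18 for complex III, -0.13 for complex IV and -0.07 for complex V. Of the 8 genes of complex III, 7 lay below 0, the core proteins Uqcrc1 and Uqcrc2 and the Rieske iron-sulfur protein Uqcrfs1 at -0.23, -0.19 and -0.18. Cox6a1, the most abundant gene of the set by FPKM, stood at 396 ± 10.3 CPM with control ASO (SD, n = 4) and at 335 ± 23.9 CPM with PLIN5 ASO (SD, n = 5), with no overlap (adjusted p = 0.217). The F1 subunit genes Atp5a1 and Atp5b, the highest of the set by counts, were at -0.05 ± 0.08 and -0.12 ± 0.07 (SE).

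In re-fed liver the median of the same contrast had the opposite sign. None of the 78 genes passed by edgeR, where 1.38% of all genes were called, 0.812% as higher and 0.564% as lower. At an unadjusted p under 0.05 there were 32 higher and 0 lower, against 1307 and 1220 of all 13293 genes tested. Among genes under 1000 nt the higher ones were 24 of the 48 members and 337 of all 979 tested. DESeq2 called 11 members higher, with 336 genes higher in all, and limma on FPKM called 0 members. The median was 0.18 with 72 of 78 genes above 0, beside -0.008 over all genes. Of 8 endothelial markers, 1 was above 0 (median -0.27) and 1 was called lower. Hepatocyte markers were at 6 of 10 above 0 (0.10), with 1 called higher. The lists of other cells lay on both sides, with none of their genes called. Stellate cell and fibroblast markers were at 5 of 8 above 0 (0.15), cholangiocyte markers at 3 of 5 (0.17) and neutrophil and monocyte markers at 3 of 5 (0.04). Kupffer cell and macrophage markers were at 4 of 12 (-0.06) and lymphocyte markers at 2 of 6 (-0.40). The part of these markers in the result was not tested. Uqcrq had the smallest p. It stood at 222, 241, 248.3, 250.2 and 233.3 CPM with control ASO and at 317, 431.5, 281.4, 270.8 and 263.9 CPM with PLIN5 ASO, which did not overlap. Its log2 fold change was 0.39 ± 0.10 (SE, adjusted p = 0.0608). Wholly higher groups were seen for 6 of the 78 genes and 2.48% of all genes, and wholly lower groups for 0 and 1.74%. Those wholly higher included Ndufa3, Ndufa4, Atp5d and Atp5h, with log2 fold changes of 0.25 to 0.29. Without re-fed PLIN5 ASO 2 the median was 0.09 with 65 of 77 genes above 0, and edgeR called none.

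The interaction, which is the ASO difference in re-fed liver minus that in fasted liver, was above 0 for all 78 genes, with a median of 0.28 beside -0.017 over all genes tested. None passed by edgeR, where 0.0226% of all genes did, 0.015% as higher and 0.00752% as lower. At an unadjusted p under 0.05 there were 42 higher and 0 lower, against 1012 and 979 of all 13293 genes tested, and among genes under 1000 nt 32 of the 48 members and 229 of all 979 were higher. Of the members, DESeq2 and limma on FPKM both called 0. The smallest p belonged to Ndufa7, at 0.47 ± 0.13 (SE, adjusted p = 0.18), followed by Ndufa3 at 0.37 ± 0.11 (SE, adjusted p = 0.197). The catalytic subunit Atp5b was lowest, at 0.01 ± 0.10 (SE). None of 12 Kupffer cell and macrophage markers (median -0.78) and none of 8 stellate cell and fibroblast markers (-0.67) were above 0 in the interaction, with 4 of each lower at an unadjusted p under 0.05. Neutrophil and monocyte markers were at 1 of 5 (-0.91), lymphocyte markers at 1 of 6 (-0.36), endothelial markers at 3 of 8 (-0.16) and cholangiocyte markers at 2 of 5 (-0.23). Hepatocyte markers were at 5 of 10 (-0.008). None of these markers was called, and their part was not tested. The genes are measured in the same libraries and are not independent of each other, so the count of signs is a description. The 2 re-feeding comparisons share no library, while each shares libraries with both ASO comparisons and with the interaction.

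**Figure D4:**
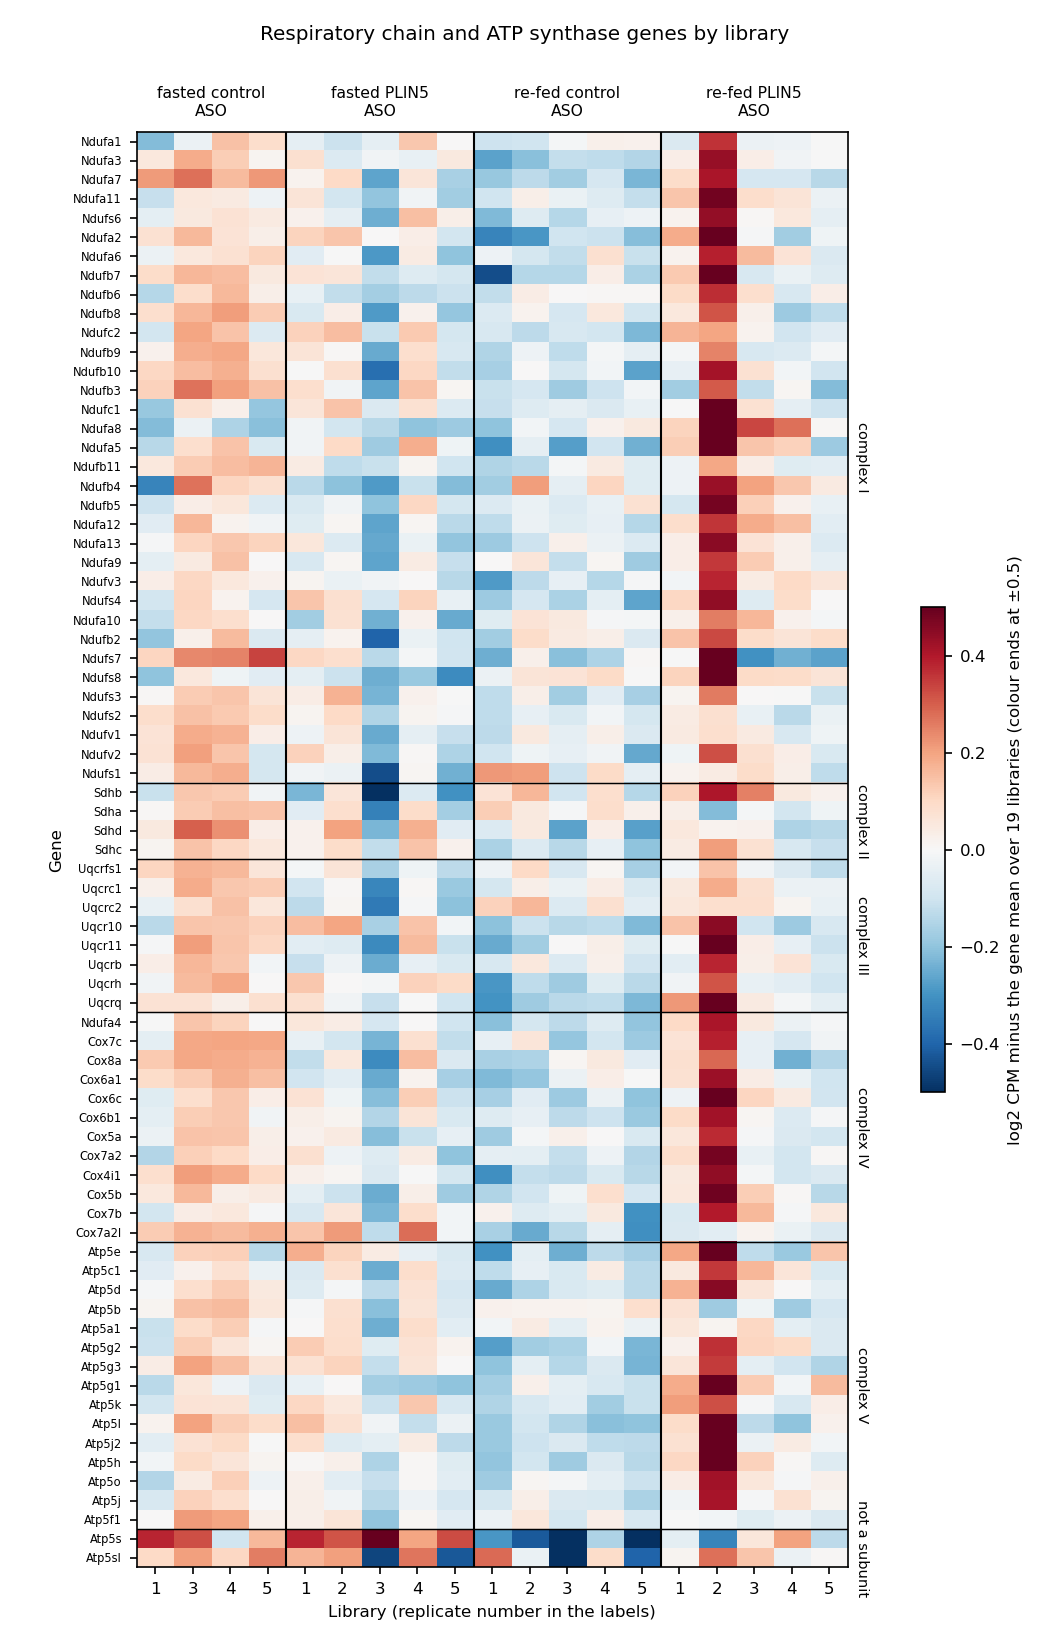
log2 CPM of each gene minus its mean over 19 libraries, by complex and by transcript length within a class, for the 75 genes other than Cox6b2, Cox7a1 and Ndufa4l2. Re-fed PLIN5 ASO 2 is high across nearly all genes, fasted PLIN5 ASO 3 is low, and re-fed control ASO is low across most genes.

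The levels of the 78 genes varied together by library. Relative to each gene's mean, their median was 0.389 (log2) in re-fed PLIN5 ASO 2, between -0.052 and 0.048 in the other 4 libraries of that group, and -0.2 in fasted PLIN5 ASO 3, the lowest of all. The 5 re-fed control ASO libraries lay between -0.149 and -0.021 and the 4 fasted control ASO libraries between -0.004 and 0.136. Transcript length moved with this. The 78 genes have short transcripts, with a median of 863 nt against 2819 nt over all genes tested, and 48 are under 1000 nt. In re-fed PLIN5 ASO 2, the tested genes under 1000 nt were 0.418 (log2) higher relative to those over 5000 nt, the most of any library, and in re-fed control ASO this difference was between -0.303 and -0.082.

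Short and long genes of all kinds differed between groups in some comparisons. For PLIN5 ASO in re-fed liver, the median log2 fold change was 0.19 over the 979 tested genes under 1000 nt and -0.13 over the 2226 genes over 5000 nt, beside 0.18 over the 48 members under 1000 nt. For re-feeding under control ASO these medians were -0.11, 0.14 and -0.19. In fasted liver, the ASO medians were 0.02 and 0.03 for short and long genes of all kinds and -0.09 and -0.12 for the members under and over 1000 nt. Over all 13188 tested genes with a length, Spearman's rho between length and fold change was -0.34 for PLIN5 ASO in re-fed liver, 0.23 for re-feeding under control ASO, -0.28 for the interaction, 0.03 for PLIN5 ASO in fasted liver and -0.06 for re-feeding under PLIN5 ASO, a description over genes measured in the same libraries.

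When each library's trend with transcript length was taken out, the re-fed ASO median was 0 with 39 of 78 genes above 0. The control re-feeding median became -0.06 (24 above 0), the PLIN5 re-feeding median 0.06 (56 above 0), the interaction median 0.11 (73 above 0) and the fasted ASO median -0.10 (9 above 0). Under control ASO, Cox7a2l (-0.23), Ndufa7 (-0.25) and Atp5s (-0.57) still passed as lower on re-feeding, Ndufa3 and Cox4i1 no longer did, and Ndufs8 passed as higher (0.22, adjusted p = 0.0284). Under PLIN5 ASO all 6 passed as higher, with Ndufs8 at 0.31 (adjusted p = 0.00317), Ndufa8 at 0.37 (adjusted p = 0.00611) and Cox7a1 just under the threshold (adjusted p = 0.0497). Ndufa11 (0.17) and Ndufa12 (0.20), 2 accessory subunits of complex I, were added. What part length, RNA quality or library preparation had in the raw differences was not tested.

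**Figure D5:**
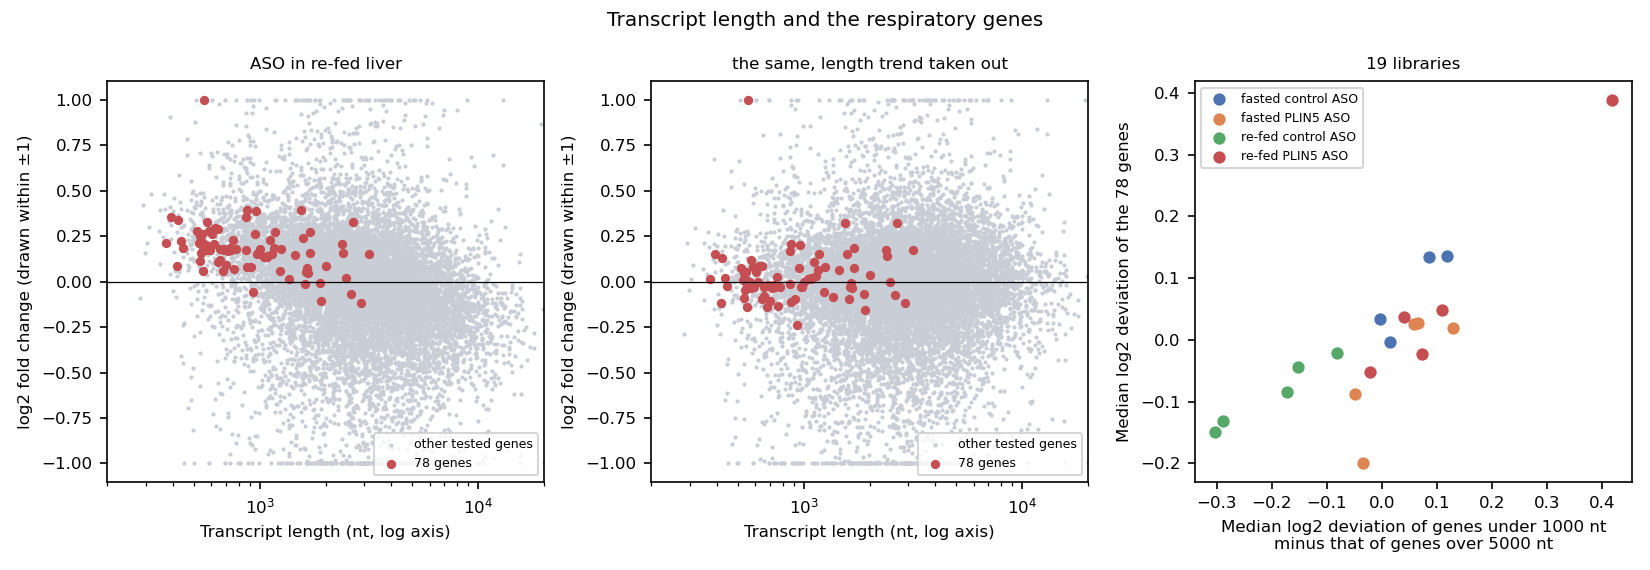
Left and middle, log2 fold change of PLIN5 ASO in re-fed liver against transcript length (log axis) for the 78 genes in red and the other tested genes in grey, before and after the length trend of each library was taken out. Right, the members' median log2 deviation in each library against that of short minus long genes, with re-fed PLIN5 ASO 2 at the upper right (0.418, 0.389).

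Genes of the same pathway outside the symbol rule were examined from lists chosen with earlier results known. Of 10 tested subunits and electron carriers outside the rule, 3 fell on re-feeding under control ASO, where 6.82% of all genes tested were called lower. These 3 belong to the route by which fatty acid oxidation feeds electrons into the chain. Etfdh, the dehydrogenase that hands electrons to ubiquinone, stood at 385 ± 28.0 CPM fasted (SD, n = 4) and 251 ± 16.2 CPM re-fed (SD, n = 5), which is -0.62 ± 0.11 on the log2 scale (SE, adjusted p = 0.00138). Etfb was at -0.46 and Etfa at -0.21, the genes for both subunits of the flavoprotein that delivers those electrons. Etfb passed under 33 of 34 alternatives. Etfa passed under 19, and missed the threshold with the length trend out (-0.14, adjusted p = 0.161), without the clock-shifted libraries (-0.15, adjusted p = 0.158) and in 6 of the 19 fits that left out 1 library (any fasted control ASO library, or re-fed control ASO 3 or 5). Etfdh also fell under PLIN5 ASO, by 0.74 on the log2 scale (adjusted p = 0.000239), whereas Usmg5, a small membrane subunit of the ATP synthase, rose there by 0.43 (adjusted p = 0.00803), or 0.33 without the clock-shifted libraries (adjusted p = 0.065).

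Of 44 tested assembly factors, 3 fell on re-feeding under control ASO (Uqcc3, Cox14 and Cox17) and 3 rose under PLIN5 ASO (Ndufaf1, Ndufaf6 and Tmem186, all for complex I). These counts are near the shares of all genes tested, 6.82% called lower and 4.5% called higher in the same comparisons. Cox14 missed the threshold with the length trend out (-0.23 against -0.35, adjusted p = 0.0765) and without fasted control ASO 1. Cox17 passed under 21 and Tmem186 under 18 of 34 alternatives, in 12 and 10 of the 19 fits that left out 1 library. Without the clock-shifted libraries none of the 3 that rose passed, with Ndufaf1 at 0.18 against 0.28 (adjusted p = 0.123), Ndufaf6 at 0.31 (adjusted p = 0.0824) and Tmem186 at 0.27 (adjusted p = 0.137). Uqcc3, an assembly factor of complex III, was the gene of these lists called by edgeR for PLIN5 ASO in re-fed liver, where 0.812% of all genes were called higher. It stood at 18.72, 22.06, 22.13, 23.02 and 17.48 CPM with control ASO and at 29.14, 30.9, 26.85, 24.73 and 25.67 CPM with PLIN5 ASO, which is 0.41 ± 0.08 on the log2 scale (SE, adjusted p = 0.023). With the length trend taken out this was 0.23 (adjusted p = 0.131), and it also missed the threshold without re-fed control ASO 1 or 5, without re-fed PLIN5 ASO 1 or 2 and without the clock-shifted libraries. On re-feeding under control ASO, Uqcc3 went from 33.8 ± 1.69 to 20.7 ± 2.43 CPM (SD), a fall that passed under all 34 alternatives. For the interaction Uqcc3 was at 0.54 and was called by DESeq2 (adjusted p = 0.0117) but not by edgeR (adjusted p = 0.118).

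In the citric acid cycle, calls went in both directions. Of its 19 genes, with pyruvate dehydrogenase included, 2 rose and 2 fell on re-feeding under control ASO, and 3 rose and none fell under PLIN5 ASO. Of all genes tested, 6.42% were called higher and 6.82% lower under control ASO, and 4.5% higher and 4.14% lower under PLIN5 ASO. Pdhb, the E1 beta subunit of pyruvate dehydrogenase, rose by 0.54 and 0.69 (adjusted p = 0.000732 and 5.53e-05), and Cs, citrate synthase, by 0.32 and 0.42 (adjusted p = 0.021 and 0.00351). Those that fell under control ASO were Idh2 (-0.57), the mitochondrial NADP-dependent isocitrate dehydrogenase, and Suclg1 (-0.30), a subunit of succinyl-CoA ligase. Without the clock-shifted libraries both missed the threshold (Idh2 adjusted p = 0.0501, Suclg1 adjusted p = 0.0878), as did Cs under control ASO (adjusted p = 0.114) and Pdhx, the third gene that rose under PLIN5 ASO (adjusted p = 0.0812). Idh2, Suclg1 and Cs under control ASO were also lost without fasted control ASO 3 or 4. Pdhb in both comparisons and Cs under PLIN5 ASO passed under all 34 alternatives.

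Of 13 genes of coenzyme Q synthesis, Adck4 (-0.48) and Coq3 (-0.31) fell on re-feeding under control ASO and none was called under PLIN5 ASO. Among all genes tested, 6.82% were called lower under control ASO, and 8.64% were called in either direction under PLIN5 ASO. Coq3 passed under 24 of 34 alternatives and in 13 of the 19 fits that left out 1 library, and was lost under limma on FPKM. Adck4 missed the threshold without the clock-shifted libraries (-0.33, adjusted p = 0.068) and without fasted control ASO 3. Of 17 transcription regulators of respiratory genes, 2 fell on re-feeding under control ASO, beside the same 6.82% of all genes tested. They were Tfam, the packaging and transcription factor of mitochondrial DNA (-0.31, adjusted p = 0.00488), and Esrra, an orphan nuclear receptor (-0.41, adjusted p = 0.0456). Tfam passed under all 34 alternatives. Esrra passed under 16 of 34 and in 8 of the 19 fits that left out 1 library, and it was at -0.26 without the clock-shifted libraries (adjusted p = 0.12). Creb1 rose on re-feeding under control ASO (0.35), a call lost without fasted control ASO 1, and Pprc1, a coactivator of the PGC-1 family, rose under PLIN5 ASO (0.63, adjusted p = 0.0212), a call lost without the clock-shifted libraries (adjusted p = 0.0881), fasted PLIN5 ASO 5 or re-fed PLIN5 ASO 3. In fasted liver, edgeR called none of the genes in these lists for PLIN5 ASO, and at an unadjusted p under 0.05 there were 2 higher and 3 lower among assembly factors, 0 and 3 in the citric acid cycle, 1 and 1 in coenzyme Q synthesis, 1 and 1 among regulators and 0 and 1 among subunits and carriers, where all 13293 genes tested had 1002 and 1001. Idh2 was at -0.59 there (adjusted p = 0.0713), with every PLIN5 ASO library below every control one. It passed by DESeq2 (adjusted p = 0.0179) and with a replicate block (adjusted p = 0.0266). With the block and the length trend out it also passed (adjusted p = 0.028), as it did without fasted PLIN5 ASO 2 or 4. Those 2 libraries were the highest of their group for Idh2, at 137.4 and 136.9 CPM. The lowest were the clock-shifted libraries 3 and 5, at 79.67 and 90.65 CPM. Idh2 missed the threshold under all other alternatives, among them the fit without the clock-shifted libraries.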

How the data were processed

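The authors deposited raw counts per gene and FPKM values per gene for 19 mouse liver libraries. Per the submitters' processing notes, the tools were HISAT2 2.0.2, Subread, edgeR, Cuffdiff 2.2.1 and FastQC, and the builds mm10 and GRCm38. The roles of these tools, the annotation, strandedness and multi-mapping were not given in the sources used here. Genes that overlap another gene or resemble a paralog are therefore uncertain. Samples were grouped by the labels' ASO and feeding state.

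Counts as deposited were fitted with edgeR 4.0.16 (R 4.3.3; quasi-likelihood test, TMM scaling, filterByExpr with a minimum count of 10) with a mean per group over all 19 libraries, so that all groups share 1 estimate of spread; the biological coefficient of variation was 19.3%. All tests were two-sided, p-values were adjusted by Benjamini-Hochberg over all 13293 genes tested, and calls were made at 0.05. Every adjusted p in the text is from this test unless another tool is named. CPM were computed on TMM-scaled libraries. Levels between genes were compared on the deposited FPKM. Transcript lengths came from the GENCODE annotation of GRCm38, for 99.21% of tested genes, and the trend of each library with length was taken out through offsets in 25 bins. Depth was 24942147 to 66862784 counts per library. The fits were tested on simulated data.

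Alternatives were other scaling and filters, DESeq2 1.42.0, limma 3.58.1 on log2(FPKM + 1) and log2(FPKM + 0.1), only the groups compared, a replicate block, the length offsets, fasted control ASO 3 and 4 as 1 sample, and leaving out libraries. Taking out the length trend together with leaving out libraries was chosen after seeing the data. The genes, the lists and the libraries left out were chosen with earlier results of these data known. Named genes were the 12 with the smallest p in each comparison, core subunits and tissue isoforms with their liver forms, the 3 with the smallest p of each other list, and Plin5, Arntl and Dbp; others were named because they passed under an alternative. Genes coded in mitochondrial DNA were not analysed here.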

Additional observations from a re-analysis of the deposited data

Results flagged for a closer look

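In 13 of 212 groups of values from the named genes, the highest or lowest library stood apart from the rest of its group by Dixon's criterion, which chance gives in about 1 in 20 groups. Re-fed PLIN5 ASO 2 was the high library in 7 of them. Its level was 165.9 CPM for Atp5g1 (the other 4 libraries 101.5 to 116.7), 222.7 CPM for Atp5o (165.9 to 173.2), 510.6 CPM for Cox4i1 (352 to 388.8) and 127.7 CPM for Ndufa3 (93.39 to 96.72). It was 113.6 CPM for Ndufs8 (80.94 to 83.52), 140.6 CPM for Ndufv3 (107.2 to 115.9) and 330.4 CPM for Uqcrh (248.1 to 262.4). Fasted control ASO 1 was low for Cox7c at 49.05 CPM (57.99 to 58.21) and for Sdha at 524.8 CPM (570.8 to 579.2). Re-fed control ASO 1 was low for Cox4i1 at 303.4 CPM (340.7 to 356.3) and for Ndufb6 at 41.2 CPM (44.96 to 46.07). Re-fed control ASO 5 was high for Atp5b at 1175 CPM (1118 to 1124), and fasted PLIN5 ASO 3 was low for Ndufb2 at 28.5 CPM (35.07 to 38.06).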

How the results depend on the processing

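Of the values for named genes under 34 alternatives, 12297 kept their side of the threshold, 103 passed only under the alternative and 226 passed only in the main result. None that passed in either fit reversed its direction. Direction was not compared where a gene passed in neither. For PLIN5 ASO in fasted liver, where none passed, 1 gene (Ndufa7) passed with the length trend out and re-fed PLIN5 ASO 2 left out. In re-fed liver, where none passed by edgeR, DESeq2 called 11, and the median of 0.18 became 0 with the length trend out, -0.015 with the length trend out and without the clock-shifted libraries, and -0.028 with it out and without re-fed PLIN5 ASO 2. For re-feeding under control ASO, where 5 were called, 8 were called with a filter of 1 CPM in 4 libraries, 11 by DESeq2, 12 with only the groups compared, 3 by limma on log2(FPKM + 1) and 3 on log2(FPKM + 0.1), 2 without the clock-shifted libraries, 3 with fasted control ASO 3 and 4 as 1 sample, and 0 with the length trend out and without the clock-shifted libraries, where the median was -0.038. For re-feeding under PLIN5 ASO, where 6 were called, 1 was called with only the groups compared (Ndufb4), 1 without the clock-shifted libraries, 3 when the length trend was also out, and 2 with it out and without re-fed PLIN5 ASO 2. The interaction median of 0.28 became 0.112 with the length trend out, 0.047 with it out and without the clock-shifted libraries, and 0.081 with it out and without re-fed PLIN5 ASO 2. The causes were not tested. The interaction already uses all groups, so leaving other groups out was not run for it.

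Leaving out each of the 19 libraries in turn gave 0 to 4 calls for PLIN5 ASO in re-fed liver (4 without re-fed PLIN5 ASO 5), 3 to 20 for re-feeding under control ASO, 2 to 7 for re-feeding under PLIN5 ASO, and 0 throughout for PLIN5 ASO in fasted liver and the interaction. The medians kept their sign in each of these.

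Replicate numbers are shared between groups, but 10 of 27 same-numbered pairs had correlated deviations over 0.1 (-0.21 to 0.38), and 4 of 19 libraries matched best with their own number, so the numbers were not taken to pair libraries. With a replicate block, 18 genes were called for re-feeding under control ASO and 1 (Ndufa5) for PLIN5 ASO in re-fed liver. With the block and the length trend out, 1 was called for PLIN5 ASO in fasted liver (Ndufa7), the re-fed ASO median was 0 and the interaction median 0.132.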

Other observations

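Ndufs5, an accessory subunit of complex I, had 0 counts in every library but a deposited FPKM of 64.0 ± 19.9 in fasted control ASO (SD, n = 4), 58.9 ± 9.42 in fasted PLIN5 ASO, 57.2 ± 6.35 in re-fed control ASO and 52.7 ± 13.4 in re-fed PLIN5 ASO (SD, n = 5 each). The symbol was 1 of 20, among 6140 with 0 counts in all libraries, that had a mean FPKM of at least 10. By limma on log2(FPKM + 1), it was called in no comparison (adjusted p between 0.597 and 0.915). The ratio of FPKM to CPM per kilobase of the transcript used here ranged from 0.1922 for Ndufa11 and 0.9776 for the next lowest, Sdhd, to 3.695 for Atp5g1, 3.733 for Ndufv3 and 6.703 for Ndufb2, with a median of 1.317 over the 78 genes.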
